A study of Mus musculus with 8 samples.

Results

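miR-34a was measured in the mouse amygdala, a brain region on which learned fear depends, by a capture probe for each of its arms. The members were the miRNA probes of the array whose mouse name has the exact stem miR-34a with any arm ending, and this gave 2 of the 1034 probes with a mouse name. They are mmu-miR-34a, the 5p arm, and mmu-miR-34a*, the 3p arm, where the asterisk is the array design's mark for the less abundant arm. Tissue punches of 1 mm came from both amygdalae of adult male C57/Bl6J mice. Of the 8 mice, 4 stayed in the home cage and 4 were killed 30 min after auditory fear conditioning, in which a 6 kHz tone was paired with a 0.6 mA shock 5 times. Each mouse had its own array, so a group is 4 animals. The p-values measure the spread between animals together with that between their arrays, which cannot be told apart. Neither tone nor shock was given to the home cage group, so fear learning and the mere experience of tone or shock cannot be told apart. On each array 500 ng of sample RNA carried the dye Hy3 and a pool of RNA from the individual animals carried Hy5.

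miR-34a belongs to a small family of miRNAs that share their seed, the bases near the 5′ end that pair with target transcripts. In mammalian cells the transcription factor p53 induces the genes of miR-34a and of the miR-34b and miR-34c cluster, and miR-34a represses transcripts of cell cycle, survival and Notch pathway proteins. It is expressed in brain and many other tissues, while miR-34b, miR-34c and the miR-449 miRNAs mark multiciliated cells such as those lining the ventricles. The study followed up miR-34a on these same arrays, so a p for it is not independent evidence.

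The sequences below show what the probes address, from RefSeq annotation of GRCm38.p6, with the seed (bases 2 to 8) in capitals. The arms of miR-34a are followed by the matched family members with the same 5p seed.
mmu-miR-34a-5p: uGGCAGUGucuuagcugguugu
mmu-miR-34a-3p: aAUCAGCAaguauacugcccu
mmu-miR-34b-5p: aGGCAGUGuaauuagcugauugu
mmu-miR-449a-5p: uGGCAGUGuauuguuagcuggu
mmu-miR-449c-5p: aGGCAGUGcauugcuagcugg
The seed GGCAGUG stood in 4 of the 1679 mature mouse entries of the table, which are miR-34a-5p, miR-34b-5p, miR-449a-5p and miR-449c-5p. The seed of the 3p arm, AUCAGCA, stood in 1 entry, its own. Compared base by base from the 5′ end with miR-34a-5p, miR-449a-5p was equal at 15 of 22 positions, miR-449c-5p at 12 of 21 and miR-34b-5p at 11 of 22. The 3p arms of miR-34b and miR-34c, shown for comparison, have another seed than the 3p arm of miR-34a.
mmu-miR-34b-3p: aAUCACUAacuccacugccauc
mmu-miR-34c-3p: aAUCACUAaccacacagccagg
Of the 10 probes for miR-34 and miR-449 on the array, 8 were matched to a mature entry. The probes miR-34c and miR-449b were not matched, and the count of seeds does not cover them.

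Both arms are cut from a single hairpin, printed here with the arms in capitals to show how they lie within it.
Mir34a: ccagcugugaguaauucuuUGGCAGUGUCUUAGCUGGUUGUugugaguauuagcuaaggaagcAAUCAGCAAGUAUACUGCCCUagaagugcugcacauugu
The hairpin of 102 bases lies at chr4:150068454-150068555 on the plus strand, its 5p arm at chr4:150068473-150068494 and its 3p arm at chr4:150068517-150068537, with 22 bases between them. In the RefSeq annotation 0 other genes overlap Mir34a. The nearest before it is the long non-coding RNA gene Gm13067, 9737 bases away, and the nearest after it is the protein-coding gene Gpr157, 18948 bases away.

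The 5p arm was clearly above background on every array. In spot signal minus local background, averaged over its 4 spots, miR-34a read 174, 208, 196 and 183 scanner units on home cage arrays 1 to 4, and 176, 197, 248 and 390 on fear conditioned arrays 1 to 4. The home cage arrays and the first 2 conditioned arrays were alike, and conditioned arrays 3 and 4 read higher. The SD between the 4 spots of an array was 55.5, 14, 16.9 and 19.8 in the home cage and 10.9, 10.7, 15.8 and 25.9 after conditioning, so the high reading of conditioned array 4 was shared by its spots. The wide SD of home cage array 1 came with a single low spot at 95.9 beside spots up to 221.

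**Figure D1:**
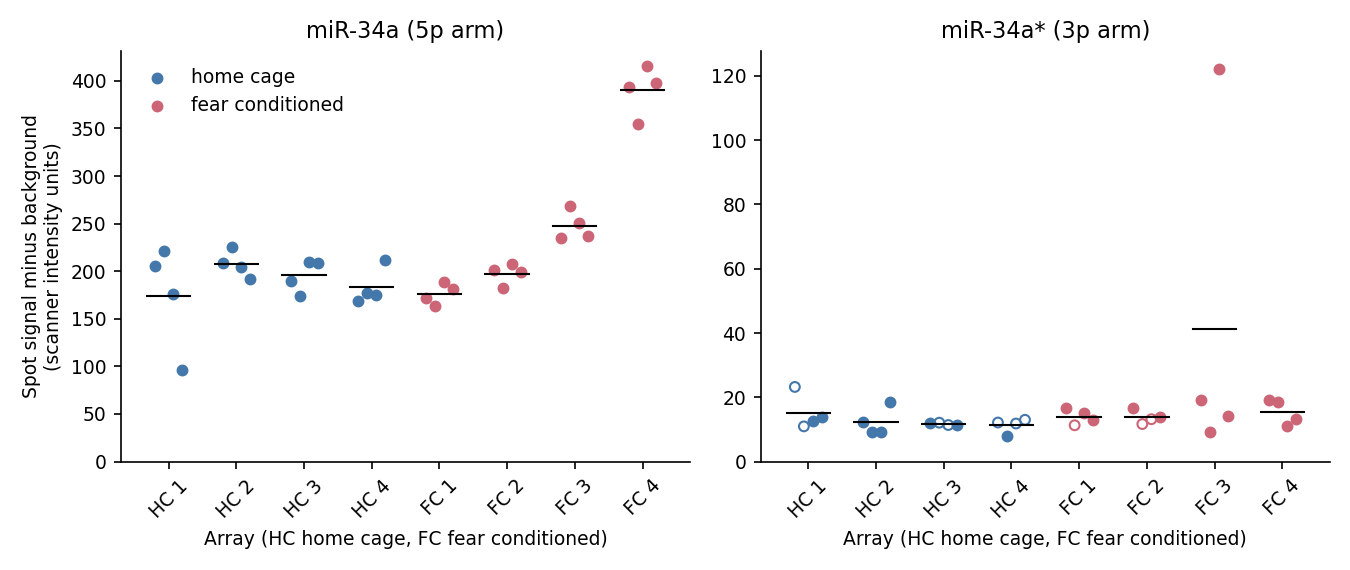
Spot signal minus local background (scanner intensity units, linear scale) of miR-34a and miR-34a* on each array, HC for home cage and FC for fear conditioned. Points are spots, open points are spots left out for poor shape, and bars are the mean of all 4 spots. miR-34a spots of conditioned array 4 lie between 354 and 416, while miR-34a* spots lie near background apart from a single spot at 122.1 on conditioned array 3.

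The conditioned arrays with the higher readings were also the brighter arrays. The 95th percentile of all capture spots was 423, 521, 463 and 538 on home cage arrays 1 to 4, and 542, 561, 742 and 849 on conditioned arrays 1 to 4. As a percentage of that brightness, miR-34a stood at 41.2%, 39.8%, 42.2% and 34% in the home cage and at 32.5%, 35.1%, 33.4% and 46.0% after conditioning. On this relative scale 3 of the 4 conditioned arrays lay among the lowest values and conditioned array 4 was the highest of all 8. Across the 8 arrays, log2 brightness and the miR-34a signal before scaling had a Pearson r of 0.72 and a Spearman rho of 0.45, with exact permutation p = 0.0432 and 0.267, and 0.171 and 0.357 after Benjamini-Hochberg adjustment over the 4 relations computed. Without conditioned arrays 3 and 4, the farthest from the median brightness, r was -0.64, so the relation rests on those arrays. Within groups r was -0.78 over the home cage arrays and 0.96 over the conditioned arrays, with 4 arrays each. After normalisation r between brightness and miR-34a was 0.24 (exact permutation p = 0.587, adjusted 0.587; Spearman rho -0.071, p = 0.882, adjusted 0.882), and -0.32 without those same arrays.

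After quantile normalisation, which gives every array the same distribution of signals, miR-34a did not differ between the groups beyond the spread within the groups. Its log2 Hy3 signal was 8.07, 8.15, 8.33 and 8.02 on home cage arrays 1 to 4 and 8.0, 8.13, 7.94 and 8.45 on conditioned arrays 1 to 4. The groups overlapped, with both the lowest and the highest of the 8 values among the conditioned mice. The mean was 8.14 ± 0.14 (SD, n = 4) in the home cage and 8.13 ± 0.23 (SD, n = 4) after conditioning. The difference, conditioned minus home cage, was -0.011 (SE 0.12, limma 95% interval -0.28 to 0.26, limma adjusted p = 0.966), and a two-sided exact permutation test gave p = 0.886. As a ratio this is 0.993-fold with an interval from 0.821-fold to 1.20-fold. Differences inside that range are compatible with these values, and the interval is not a limit of detection.

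The ratio to the pool that the authors deposited for the same probe gave the same picture. The log2 ratio of miR-34a was 0.0086, -0.29, -0.083 and -0.45 on home cage arrays 1 to 4 and -0.20, -0.20, -0.36 and 0.0048 on conditioned arrays 1 to 4. The conditioned values lay within the range of the home cage values. The means were -0.20 ± 0.20 and -0.19 ± 0.15 (SD, n = 4 each), a difference of 0.013 (SE 0.11, limma 95% interval -0.23 to 0.25, limma adjusted p = 0.976, exact permutation p = 0.971). The fold was 1.01, with an interval from 0.855 to 1.19. Ordered by unadjusted p, miR-34a was number 996 of 1034 probes in the Hy3 signal and number 956 of 1033 in the ratio.

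**Figure D2:**
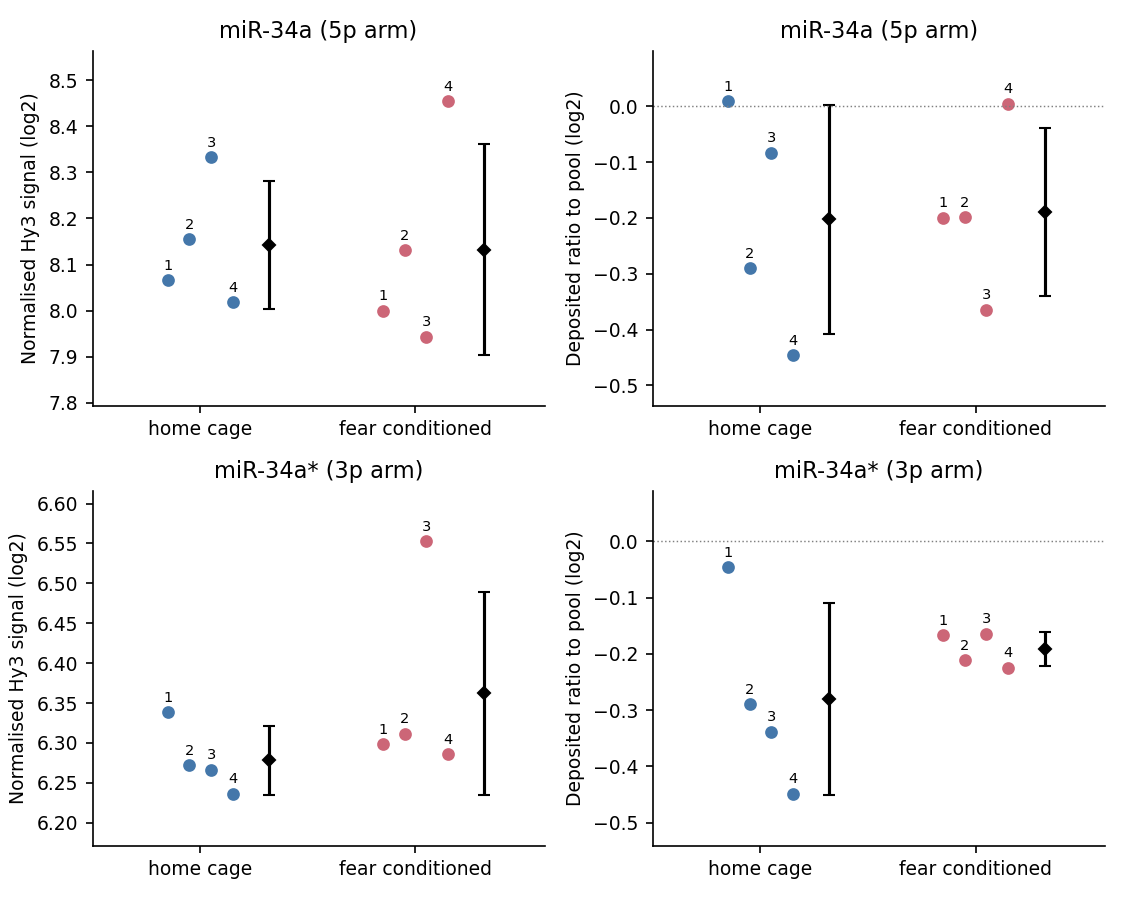
Normalised Hy3 signal (log2, left) and deposited ratio of sample to pool (log2, right) of miR-34a (top) and miR-34a* (bottom), 1 numbered point per array, with the mean (diamond) and SD of each group of 4. The groups overlap in all panels, and conditioned array 3 stands above the others for miR-34a* in the Hy3 signal only.

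Neither arm was among the probes that passed. In the Hy3 signal 2 of 1034 mouse probes, 0.193%, passed limma at an adjusted p under 0.05, and in the ratio 0 of 1033 did, with 79 at an unadjusted p under 0.05, or 7.65%. Groups that did not overlap were found for 9.47% of probes in the Hy3 signal and for 5.43% in the ratio, where all 8 arrays had a value, and neither arm of miR-34a was among them. Arrays were read from bulk tissue, in which fewer cells of a type and less RNA per cell cannot be told apart.

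The 3p arm, miR-34a*, was close to background. Its spot signal minus background averaged between 11.3 and 15.5 units on 7 arrays and 41.1 on conditioned array 3. On conditioned array 3 a single spot read 122.1 and the other 3 spots between 9.17 and 19.1. Only that array put miR-34a* above the negative controls (their 95th percentile), 1 of 8 arrays, where miR-34a exceeded it on 8 of 8. Spots of poor shape were left out, which kept 2, 4, 2 and 1 spots on home cage arrays 1 to 4 and 3, 2, 4 and 4 on conditioned arrays 1 to 4.

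The normalised Hy3 signal of miR-34a* was 6.34, 6.27, 6.27 and 6.24 in the home cage and 6.30, 6.31, 6.55 and 6.29 after conditioning. All arrays but conditioned array 3 lay between 6.24 and 6.34, and the groups overlapped. The means were 6.28 ± 0.043 and 6.36 ± 0.13 (SD, n = 4 each), a difference of 0.084 (SE 0.061, limma 95% interval -0.058 to 0.23, limma adjusted p = 0.542, exact permutation p = 0.257). Without conditioned array 3 the difference was 0.020 (limma adjusted p = 0.795). Plain background subtraction of the kept spots, with no scaling between arrays, gave 11.3 ± 2.24 units in the home cage and 21.7 ± 12.9 after conditioning (SD, n = 4 each), with groups that did not overlap. The log2 difference of these values was 0.81 (exact permutation p = 0.0286, the smallest that 4 against 4 can give), and scaled to the 95th percentile of each array it was 0.36 (exact permutation p = 0.400), with overlapping groups. As the probe was not well above background, none of these differences is read as a change in either direction.

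In the deposited ratio miR-34a* was at -0.046, -0.29, -0.34 and -0.45 on the home cage arrays and at -0.17, -0.21, -0.16 and -0.22 on the conditioned arrays. Conditioned array 3 did not stand apart here, and the conditioned values lay within the home cage range. The means were -0.28 ± 0.17 and -0.19 ± 0.031, a difference of 0.089 (SE 0.081, limma 95% interval -0.090 to 0.27, limma adjusted p = 0.777, exact permutation p = 0.371). Averaged over the 8 arrays, both arms had a low ratio to the pool. The mean was -0.20 for miR-34a, at percentile 7.84 of the mouse probes and below 0 on 6 arrays, and -0.24 for miR-34a*, at percentile 4.12 and below 0 on 8 arrays. As the pool was made from RNA of the individual animals, such a mean is not a measure of abundance. For miR-34a* it rests on Hy3 readings near background. Why these ratios were low was not tested.

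miR-34a varied more between the arrays of a group than most probes. Its pooled within-group SD was 0.19 in the Hy3 signal and 0.18 in the ratio, at percentiles 86.5 and 86.2 of the 480 mouse probes that exceeded the negative controls on every array. The median SD of those probes was 0.092 in the Hy3 signal and 0.11 in the ratio. Among the 101 of them whose mean signal lay within 0.5 (log2) of that of miR-34a, the median Hy3 SD was 0.11, above the 0.092 of all 480. Between the spots of miR-34a within an array, the pooled SD of the normalised signal was 0.15. It was 0.35 on home cage array 1, with its single low spot, and 0.062 to 0.12 on the other arrays. The r between the arms across the 8 arrays was -0.46 in the Hy3 signal and 0.53 in the ratio, and with miR-34a* near background it does not show whether the arms track each other. The arrays were ordered only partly alike by both kinds of value for miR-34a itself, with r = 0.65 (exact permutation p = 0.0857, adjusted 0.171) and rho = 0.57 (p = 0.151, adjusted 0.357). Without conditioned array 4 and home cage array 3, the farthest from the median Hy3 signal, r was 0.31. The unscaled Hy3 signal and the ratio had r = 0.51 (exact permutation p = 0.200, adjusted 0.267) and rho = 0.48 (p = 0.243, adjusted 0.357), and r = 0.69 without conditioned arrays 3 and 4.

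The estimate for miR-34a stayed near 0 in most processing settings, and the sign depended on the setting. Centring each array on its median gave 0.26 (95% interval -0.39 to 0.92), and no scaling between arrays gave 0.24 (95% interval -0.25 to 0.73). In both, the intervals spanned 0 and were wider than after quantile normalisation. With no scaling, limma gave all the named probes the same SE, 0.25, so that interval does not measure the spread of miR-34a itself. Home cage array 1 stood apart in the distribution of its signals, with a median of 7.23 after background correction against 6.17 to 6.52 on the other arrays, and 508 spots with background above signal against 0 to 10. Median centring without that array gave 0.079. Plain background subtraction before any scaling gave group means of 190 ± 14.5 and 253 ± 96.4 units (SD, n = 4 each), a log2 difference of 0.34 (exact permutation p = 0.257). Scaled to the 95th percentile of each array, the same values gave -0.11 (exact permutation p = 0.429).

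**Figure D3:**
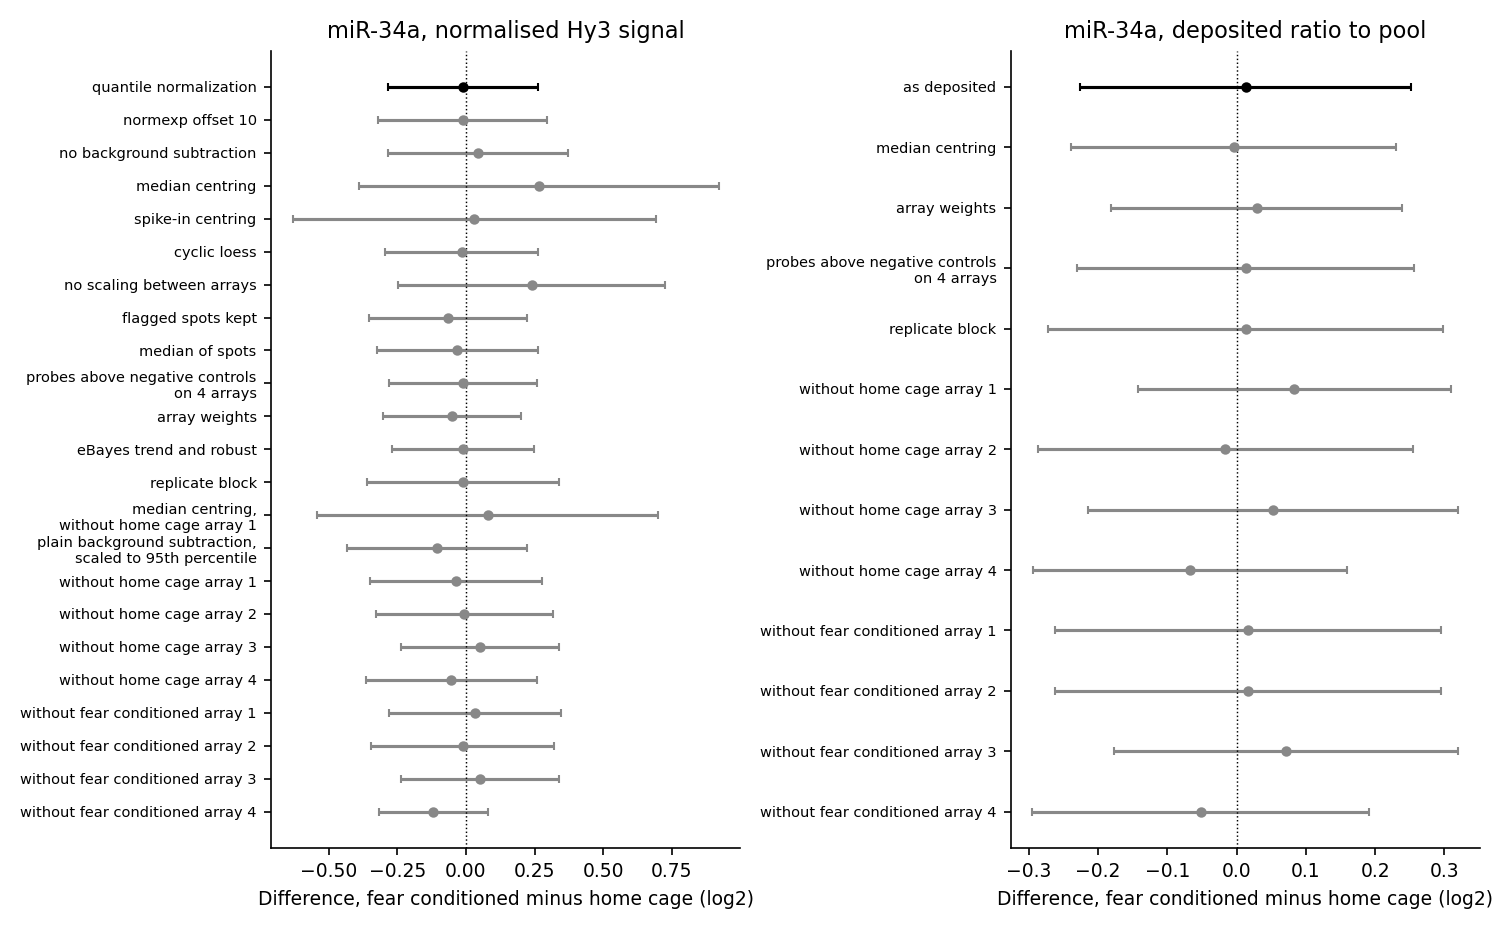
Difference of miR-34a between the groups (log2, conditioned minus home cage) with the limma 95% interval by processing setting, for the normalised Hy3 signal (left) and the deposited ratio (right). Every interval plotted spans 0, and the Hy3 differences plotted run from -0.12 to 0.26. With spike-in centring and with no scaling, the interval rests on an SE shared by the named probes. Plain subtraction without scaling is not plotted.

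Of the other 5p family members, which share the miR-34a seed where a mature entry was matched, miR-34b-5p and miR-34c exceeded the negative controls on every array and far more variable. miR-34b-5p was at 7.53, 9.39, 10.02 and 9.83 in the home cage and at 9.72, 10.28, 8.02 and 9.84 after conditioning. miR-34c was at 7.25, 9.09, 9.69 and 9.37, and at 9.49, 9.96, 7.77 and 9.54. Both were low on home cage array 1 and conditioned array 3, 1 array in each group, and the groups overlapped. Their differences were 0.27 (SE 0.66, limma adjusted p = 0.854) and 0.34 (SE 0.64, limma adjusted p = 0.820) in the Hy3 signal, and 0.33 (SE 0.62) and 0.30 (SE 0.61) in the ratio. Their pooled within-group SDs were 1.07 and 1.04 in the Hy3 signal. miR-34a was lowest on conditioned array 3, at 7.94. On home cage array 1, where miR-34b-5p and miR-34c were lowest, miR-34a lay at 8.07, among the other arrays, at 8.0 to 8.45. Across the 8 arrays its r with miR-34c was 0.46 in the Hy3 signal and -0.0018 in the ratio, and with miR-34b-5p 0.46 and -0.049, given as descriptions of the same 8 hybridisations.

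The 3p arms of that cluster did not separate the groups. miR-34b-3p was at 7.43, 7.78, 7.94 and 7.85, and at 8.14, 8.05, 7.65 and 8.09 after conditioning, a difference of 0.23 (SE 0.14, limma adjusted p = 0.459), with 0.20 (SE 0.11) in the ratio. The groups overlapped through conditioned array 3. miR-34c* differed by 0.15 (SE 0.18, limma adjusted p = 0.722) and by 0.22 (SE 0.27) in the ratio, again with overlapping groups. Without home cage array 1 the Hy3 differences were 0.13 for miR-34b-3p and 0.0064 for miR-34c*, and the ratio differences 0.13 and 0.066. Without conditioned array 4 the ratio difference of miR-34c* was 0.057, and without conditioned array 3 it was 0.47. The miR-449 probes were near background. miR-449b was above the negative controls on 5 arrays, miR-449a and miR-449c on 1 each and miR-449a* on 0. The groups did not overlap in the Hy3 signal for miR-449a, higher after conditioning, and for miR-449a* and miR-449c, lower, which makes 3 of the 10 family probes against 9.47% of all probes. In the ratio the groups overlapped for all 10. The Hy3 differences of the miR-449 probes lay between -0.16 for miR-449a* (limma adjusted p = 0.112) and 0.036 for miR-449a, and at these levels they are not read as changes.

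Of the 10 family probes 0 passed limma in either kind of value, where the background was 0.193% and 0%. The unadjusted p in the Hy3 signal was under 0.05 for miR-449a* and miR-449c, both dim, against 14.1% of all mouse probes. The 5 family probes that exceeded the negative controls on every array were miR-34a and the 4 probes of the miR-34b and miR-34c cluster. Their median difference was 0.23, with 4 higher and 1 (miR-34a) lower, where all 480 such probes had a median of -0.028, with 190 higher and 290 lower. In the ratio the median was 0.22 with 5 higher, against a median of 0.041 with 329 higher and 151 lower. Without home cage array 1, miR-34b-5p and miR-34c turned to -0.30 and -0.20 in the Hy3 signal. The 3 choroid plexus probes that exceeded the negative controls on every array also had higher means after conditioning, with a median difference of 0.24 in the Hy3 signal and 0.36 in the ratio. Among them miR-204 differed by 0.55 (SE 0.55, limma adjusted p = 0.670), with overlapping groups, and their part in the family's values was not tested.

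**Figure D4:**
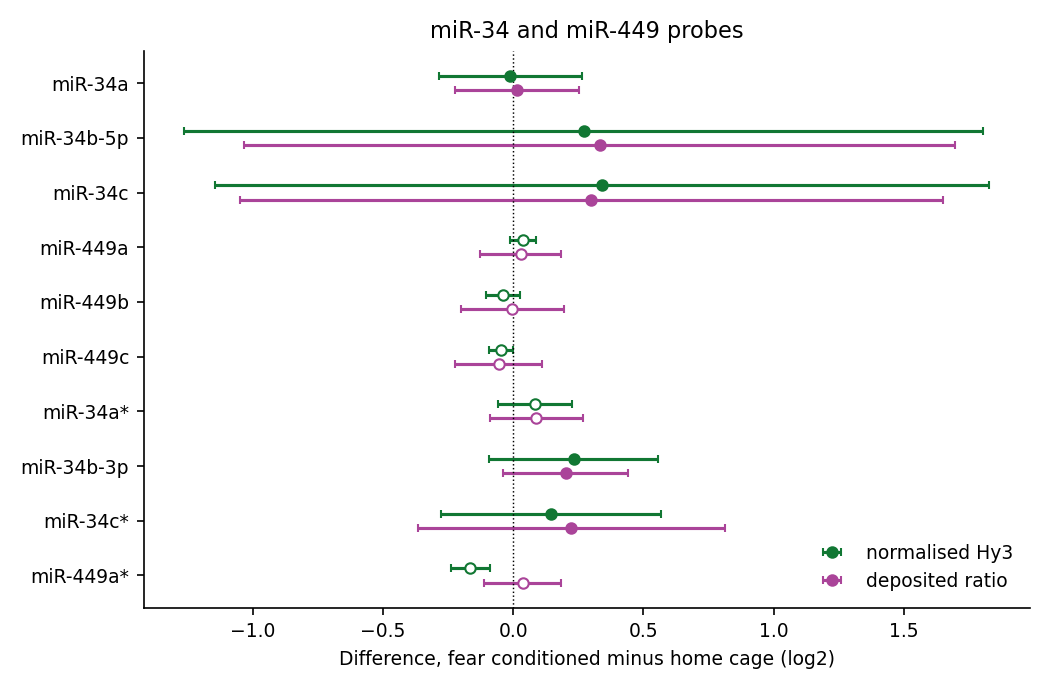
Difference between the groups (log2, conditioned minus home cage) with the limma 95% interval for the 10 miR-34 and miR-449 probes, in the normalised Hy3 signal and the deposited ratio. Filled points exceeded the negative controls on every array. miR-34a lies near 0 in both, and the wide intervals of miR-34b-5p and miR-34c run from below -1.0 to above 1.6.

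The list of miRNAs reported to be raised or matured under p53 in mammals held no passing probe. Of its 24 probes, 11 exceeded the negative controls on every array, beside 480 of all 1034 mouse probes. Of the 24, 0 passed in either kind of value. The list holds miR-34a, miR-34b and miR-34c, so the 5 family probes above the negative controls on every array are among the 11. Of the 11, 4 were higher and 7 lower in the Hy3 signal, with a median of -0.011. All 480 such probes had 190 higher and 290 lower, with a median of -0.028. The 4 higher ones were the miR-34b and miR-34c probes, and the median of the 11 is the value of miR-34a itself. In the ratio 10 were higher and 1 lower (median 0.027), against 329 and 151 (median 0.041). All 5 family probes were among those 10. The members with the smallest unadjusted p were miR-34b-3p among the higher ones, given above, and miR-107* among the lower ones. miR-107* did not pass, with a difference of -0.11 (SE 0.039, limma adjusted p = 0.325), with 6.91, 6.77, 6.80 and 6.72 in the home cage and 6.68, 6.68, 6.69 and 6.69 after conditioning. The groups did not overlap in this signal, as for 9.47% of all probes, whereas in the ratio the difference was 0.027 (SE 0.065) with overlapping groups.

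Among miRNAs that rodent studies tied to fear or stress memory, 13 of 28 probes exceeded the negative controls on every array, beside 480 of all 1034 mouse probes. Of the 28, 0 passed in either kind of value. Of the 13, 1 was higher and 12 were lower in the Hy3 signal (median -0.089), where all 480 such probes had 190 higher and 290 lower (median -0.028). In the ratio 6 were higher and 7 lower (median -0.0055), against 329 and 151 (median 0.041). The higher one was miR-19b, of the miR-17 to miR-92a cluster, at 0.27 (SE 0.13, limma adjusted p = 0.390), and its home cage array 1, at 7.16, was below the other arrays, at 7.69 to 7.97. Without that array the difference was 0.14 (limma adjusted p = 0.287), and with the median of spots it was 0.15. The lower one with the smallest p was miR-212-5p, of the CREB-induced miR-132 and miR-212 locus, at -0.18 (SE 0.058, limma adjusted p = 0.301). In the ratio these differed by 0.084 (SE 0.080) and 0.029 (SE 0.075).

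The tissue label was checked against marker miRNAs. Of all 1034 mouse probes, 480 exceeded the negative controls on every array, and a list near that share is not read as a sign of its cell type. Of the probes for neurons, 11 of 15 exceeded the negative controls on every array, miR-124 and miR-9 among them, and so did 4 of 5 for oligodendrocytes. So did 3 of 6 for the choroid plexus, 4 of 8 for multiciliated cells, 3 of 5 for red blood cells, 4 of 6 for lymphocytes and microglia, 2 of 7 for muscle (miR-1 and miR-206) and 1 of 2 for liver (miR-122). No list had a probe that passed. The multiciliated probes that exceeded the negative controls on every array were the 4 miR-34b and miR-34c probes described above. Their summed level, on the log2 scale, ran from 9.23 to 11.14 in the home cage and from 9.60 to 11.38 after conditioning. The part of such cells in the miR-34a values was not tested.

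The probes whose pattern over the 8 arrays was most like that of miR-34a differed between the kinds of value. Likeness was measured as Pearson r over 8 arrays among the 479 other probes that exceeded the negative controls on each, as a description. In the Hy3 signal the 5 most alike were miR-106b* (r = 0.89), miR-19a (0.88), miR-126-5p (0.86), miR-21 (0.84) and miR-27b (0.84). All 5 were highest on conditioned array 4, as miR-34a was. Without that array and home cage array 3, r was 0.34 for miR-106b*, 0.99 for miR-19a, 0.56 for miR-126-5p, 0.74 for miR-21 and 0.81 for miR-27b.

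In the ratio the 5 most alike were miR-101b (r = 0.88), miR-598 (0.87), let-7i* (0.85), miR-1 (0.83) and miR-700* (0.83), all lowest on home cage array 4. Without that array and home cage array 1, r was 0.84 for miR-101b, 0.69 for miR-598, 0.81 for let-7i*, 0.81 for miR-1 and 0.56 for miR-700*. No probe was in both groups of 5. miR-101b came nearest, with r = 0.81 in the Hy3 signal, and miR-106b* had r = 0.78 in the ratio. Over all 479 probes the median r was 0.032 in the Hy3 signal, with a range from -0.82 to 0.89, and 0.069 in the ratio, with a range from -0.80 to 0.88.

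**Figure D5:**
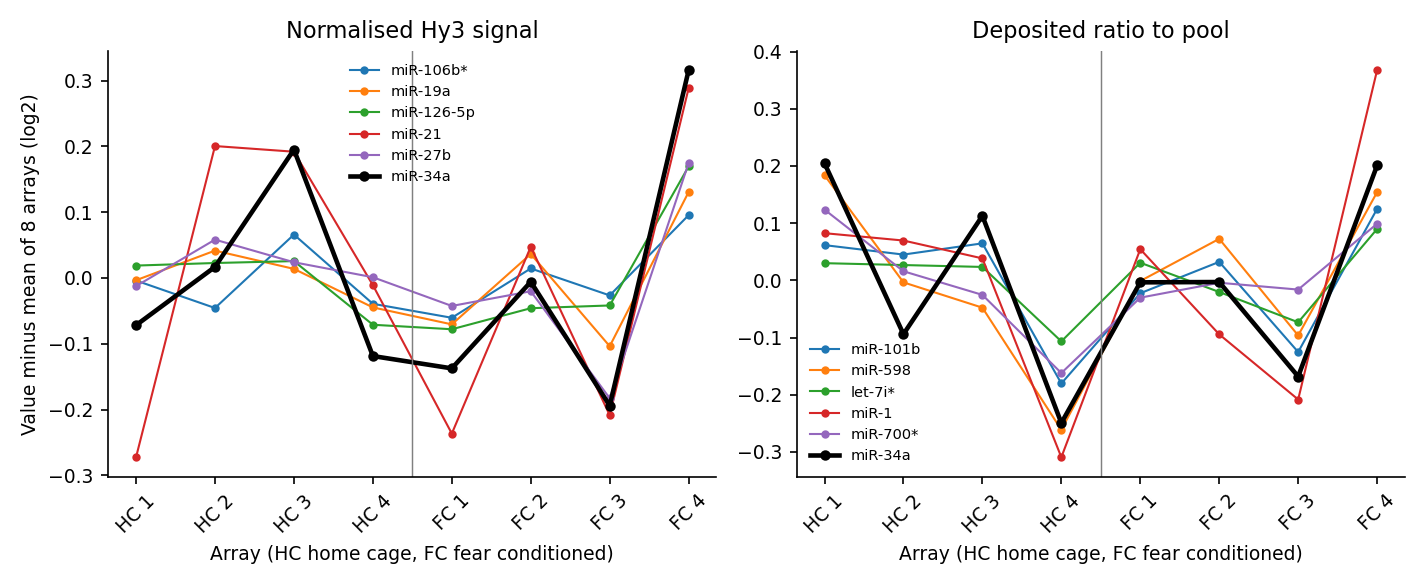
Values of miR-34a (black) and of the 5 probes most like it on each array, as the value minus the probe's mean over 8 arrays (log2), in the normalised Hy3 signal (left) and the deposited ratio (right). The lines join arrays for reading only, and in the left panel all 6 probes are highest on conditioned array 4.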

How the data were processed

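RNA from 8 amygdala samples was hybridised to arrays of locked nucleic acid probes for human, mouse and rat miRNAs. In the scanner files, per the file headers, each deposited spot has a signal intensity, a local background intensity and a flag for 1 channel. This is treated as Hy3, the dye of the sample, because the Hy3 landmark spots are bright in it and because, on each array, deviations over 80 bright probes correlated with the deposited ratio (r from 0.429 to 0.818). Hy5 intensities were left unused. A second table holds the log ratio of sample to pool as the authors deposited it, read here as log2, because the slope of log2 Hy3 on it was 0.903 over 20 probes of wide range. For its base, direction and normalization, the sources used here give no statement. The lowest correlation between its columns was 0.206, and each column's median lay between -0.018 and 0.018.

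The planned fit used the single-colour Hy3 signal: normexp background correction (offset 50), spots with flag 3 (poor shape) or 4 (background above signal) and control spots left out, quantile normalization over the 10488 capture spots, and the mean of a probe's spots on the log2 scale. No spot was saturated on any array (0 of 12312). The offset makes log2 differences of dim probes understate a change. Groups were compared with limma 3.58.1 (R 4.3.3, lmFit and eBayes, two-sided, no block) over all mouse probes, with Benjamini-Hochberg adjustment over 1034 (ratio 1033) probes. Exact permutation tests used all 70 arrangements of the arrays, whose smallest two-sided p is 0.0286. The fit was tried on simulated data with independent values for each probe and no shifts between arrays. That trial does not cover such shifts or the slide order. Between 565 and 657 mouse probes per array lay above the 95th percentile of 28 negative control spots. The number of arrays limits the precision.

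Named probes were both arms of miR-34a, every miR-34b, miR-34c and miR-449 probe, in the p53 and fear memory lists the member with the smallest unadjusted p in each direction among probes exceeding the negative controls on each of 8 arrays, and the 5 most like miR-34a in each kind of value. Members and lists were chosen with earlier results of these data known. Names follow the array's design. Every array had a separate slide without a scan date in the files used here, and slide numbers form separate runs by group, so the effects of group and slide order cannot be told apart. Alternatives changed background correction, scaling, spots, filter, weights, block and arrays. Figures were drawn with matplotlib 3.10.9.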

Additional observations from a re-analysis of the deposited data

Results flagged for a closer look

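In 5 of the 52 groups of 4 arrays examined for the arms of miR-34a, the rest of the family and the 3 probes named from the p53 and fear memory lists, a single array stood far from the other 3, by a gap that chance gives in about 1 of 20 groups. The normalised Hy3 signal of miR-34a* was 6.55 on fear conditioned array 3, with the other conditioned arrays between 6.29 and 6.31. On that array a single spot read 122.1 units above background and the other 3 spots read 9.17 to 19.1, and the deposited ratio of the same array, -0.16, was not apart. The normalised Hy3 signal of miR-449a was 6.36 on home cage array 1, with the other home cage arrays between 6.39 and 6.40. miR-449a was above the negative controls on 1 array only, conditioned array 4. The normalised Hy3 signal of miR-19b was 7.16 on home cage array 1, with the other home cage arrays between 7.69 and 7.76. The deposited ratio of miR-107* was 0.12 on home cage array 1, with the others of its group between -0.11 and -0.077, and 0.053 on conditioned array 1, with the others of its group between -0.043 and -0.035.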

How the results depend on the processing

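No setting brought either arm of miR-34a past the threshold: over the alternatives the limma adjusted p ran from 0.529 to 1.00 for miR-34a and from 0.363 to 1.00 for miR-34a* in the Hy3 signal, and from 0.765 to 0.992 and from 0.317 to 0.934 in the ratio. With spike-in centring and with no scaling, limma gave all the named probes a shared SE (0.34 and 0.25). The adjusted p of those settings therefore does not measure a probe's own spread between arrays. The causes of the changes of sign below were not tested. The miR-34a Hy3 difference (-0.011) turned to 0.043 without background subtraction, 0.26 with median centring, 0.031 with spike-in centring, 0.24 with no scaling and 0.079 with median centring without home cage array 1, the last 2 chosen after seeing the data, as was plain subtraction scaled to the 95th percentile. Its ratio difference turned to -0.0043 with median centring, and the miR-34a* Hy3 difference to -0.14 with spike-in centring. Spike-in centring moved the median of all probes by -0.18 and plain subtraction by -0.12, and relative to that median miR-34a stood at 0.21 and 0.013, and miR-34a* at 0.042 and 0.48 (0.36 as fitted, its highest value in the settings fitted). Leaving out 1 array at a time, miR-34a ran from -0.12 to 0.053 in the Hy3 signal and from -0.068 to 0.083 in the ratio, and miR-34a* from 0.020 to 0.11 and from 0.033 to 0.17. The miR-34a sign turned without home cage array 3 or conditioned array 1 or 3 in the Hy3 signal, and without home cage array 2 or 4 or conditioned array 4 in the ratio. miR-34a* was not tested among probes above the negative controls on 4 arrays.

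The 2 passing Hy3 probes became 0 without background subtraction, with median or spike-in centring, with trend and robust eBayes, with the replicate block, with median centring without home cage array 1 and with scaled plain subtraction. They became 1 with cyclic loess, with no scaling, with poor spots kept and with the filter on dim probes, 4 with the median of spots and 12 with array weights, and ran from 0 to 2 when 1 array was left out (1 without home cage array 3 or conditioned array 2, 2 without conditioned array 4, 0 otherwise). The ratio gave 0 in all 12 alternatives.

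Of the other named probes in the Hy3 signal, median centring turned miR-107* to 0.016 and miR-212-5p to 0.029, and no scaling turned miR-212-5p to 0.0042. Spike-in centring turned miR-449a to -0.20 and scaled plain subtraction to -0.046. Array weights turned miR-34b-5p to -0.12 and miR-34c to -0.050, and median centring without home cage array 1 turned them to -0.12 and -0.028. When 1 array was left out, miR-34b-5p ran from -0.30 to 0.75 and miR-34c from -0.20 to 0.81, and in the ratio from -0.21 to 0.90 and from -0.20 to 0.88, with turns of sign without home cage array 1 or, for miR-34b-5p in the Hy3 signal and miR-34c in the ratio, conditioned array 2. Ratio ranges that crossed 0 were -0.013 to 0.078 for miR-212-5p, -0.011 to 0.068 for miR-449a, -0.0084 to 0.074 for miR-449a*, -0.060 to 0.064 for miR-449b and -0.10 to 0.016 for miR-449c. With the median of spots miR-449a*, above the negative controls on no array, passed at -0.19 (limma adjusted p = 0.0346).

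The labels number the mice 1 to 4 in each group without saying that equal numbers share anything. Same-numbered arrays did not deviate together, with r of -0.087, 0.031, -0.62 and 0.0046 in the Hy3 signal, and no array correlated best with its own number. With the replicate number as a block the miR-34a differences were -0.011 (SE 0.14, limma adjusted p = 0.976) and 0.013 (SE 0.12), those of miR-34a* 0.084 (SE 0.060) and 0.089 (SE 0.075), and 0 probes passed in either kind of value.

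With 4 arrays a group, the 95% interval for miR-34a reached from 0.821-fold to 1.20-fold, and differences inside that range are compatible with these values. miR-34a* lay near background on 7 of 8 arrays, so its level cannot be compared. Hy5 intensities were not used, and how the deposited ratios were processed is not given in the sources used here. Slide order could not be separated from group.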
